A study of Mus musculus with 16 samples.

Results

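The CXC chemokines are small secreted proteins that guide leukocytes, and 5 of the 9614 genes in the table analysed here were taken from this family by gene symbol: Cxcl1, Cxcl2, Cxcl3, Cxcl10 and Cxcl16. All 5 were present in every library. RNA-seq was performed in bone-marrow-derived macrophages (BMDM), which are grown from mouse bone marrow, of male C57BL/6 mice aged 8 weeks. All mice carried LysM-Cre, a recombinase driven by the lysozyme M gene of myeloid cells, with NELF-B either wt/wt (WT) or fl/fl (NELF-B KO). NELF-B is a subunit of the negative elongation factor, which holds RNA polymerase II close to the gene start. The BMDM were left untreated (n = 2 mice per genotype) or were treated for 1 h with 10 ng/ml LPS (n = 3) or with 10 ng/ml LPS and 100 nM dexamethasone (Dex, n = 3), and the 16 libraries came from 3 WT and 3 KO mice. The mice of each genotype are named A, B and C here. LPS is a bacterial cell wall component, and Dex is a synthetic glucocorticoid that acts through the glucocorticoid receptor. Values are the deposited log2 CPM (counts of reads relative to library size, scaled per library). Unless another test is named, tests were run on them with limma over the whole table with Benjamini-Hochberg adjustment.

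Cxcl1, Cxcl2 and Cxcl3 attract neutrophils through the receptor CXCR2 and lie together in a gene cluster. They are known as fast targets of NF-kB after LPS. Cxcl10 attracts activated T cells and NK cells through CXCR3, and is induced by interferons as well as by NF-kB. Cxcl16 is made as a transmembrane protein, is released from the cell surface by ADAM proteases and binds CXCR6, and macrophages express it without a stimulus. Glucocorticoids are known to lower many cytokine and chemokine mRNAs in macrophages.

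In GENCODE vM21 (GRCm38) Cxcl3 (chr5:90786103-90789600), Cxcl1 (chr5:90891241-90893115) and Cxcl2 (chr5:90903871-90905938) lie on the plus strand, with gaps of 102 kb and 10.8 kb between them. Cxcl10 (chr5:92346638-92348889) lies on the minus strand of the same chromosome, 1441 kb beyond Cxcl2, and Cxcl16 (chr11:70453983-70459984) lies on the minus strand of chromosome 11. The promoter windows of the 4 genes that LPS induced are printed here because they share one kind of match and differ in another. They run from 250 bases before to 50 bases after the RefSeq start, 5′ to 3′ in the direction of the gene, and capitals mark matches to the NF-kB consensus and, in Cxcl10, the first block of capitals marks the match to the interferon-stimulated response element (ISRE, searched as GAAA, any 2 bases and GAAA).
Cxcl1 promoter (GRCm38.p6, chr5:90890995-90891294, plus strand): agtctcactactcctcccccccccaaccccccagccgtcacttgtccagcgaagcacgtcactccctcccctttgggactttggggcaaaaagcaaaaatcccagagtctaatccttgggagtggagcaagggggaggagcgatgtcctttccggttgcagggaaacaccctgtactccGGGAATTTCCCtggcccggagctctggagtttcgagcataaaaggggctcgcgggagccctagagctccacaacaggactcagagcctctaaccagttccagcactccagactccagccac
Cxcl2 promoter (GRCm38.p6, chr5:90903649-90903948, plus strand): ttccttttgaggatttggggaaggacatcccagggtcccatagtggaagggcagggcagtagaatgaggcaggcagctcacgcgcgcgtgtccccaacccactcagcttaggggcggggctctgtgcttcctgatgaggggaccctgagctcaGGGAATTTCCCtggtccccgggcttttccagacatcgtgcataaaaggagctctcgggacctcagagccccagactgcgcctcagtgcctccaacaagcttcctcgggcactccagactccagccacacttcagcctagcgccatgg
Cxcl3 promoter (GRCm38.p6, chr5:90785851-90786150, plus strand): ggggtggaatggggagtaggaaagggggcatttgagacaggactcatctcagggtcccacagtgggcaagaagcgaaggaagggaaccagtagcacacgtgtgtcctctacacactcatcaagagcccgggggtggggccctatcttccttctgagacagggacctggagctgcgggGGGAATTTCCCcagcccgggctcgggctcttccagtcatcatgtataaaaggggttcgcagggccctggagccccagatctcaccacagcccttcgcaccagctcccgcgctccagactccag
Cxcl10 promoter (GRCm38.p6, chr5:92348840-92349139, minus strand): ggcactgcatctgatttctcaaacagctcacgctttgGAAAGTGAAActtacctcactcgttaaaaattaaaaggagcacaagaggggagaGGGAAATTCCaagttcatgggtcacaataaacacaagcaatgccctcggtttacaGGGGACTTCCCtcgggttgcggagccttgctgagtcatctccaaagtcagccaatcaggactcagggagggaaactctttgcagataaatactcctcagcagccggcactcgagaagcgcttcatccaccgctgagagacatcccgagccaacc

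The 3 neutrophil-attracting genes held the same block, GGGAATTTCC with a further C, which begins at -71 in Cxcl1, -97 in Cxcl2 and -73 in Cxcl3 relative to the start and matches on both strands in overlapping registers. Cxcl10 held NF-kB matches beginning at -159 (GGGAAATTCC) and at -104 and -103 (overlapping), an ISRE match at -213 to -204 (GAAAGTGAAA), which the other 3 windows lacked, and an AP-1 match (TGANTCA) at -74. Cxcl3 alone of the 4 held TATAAA, at -30. A glucocorticoid response element palindrome, searched as ACANNNTGT, was found in Cxcl1 alone, at -85 (ACACCCTGT). Of the 32851 RefSeq promoter windows of this length, 8.46% held the NF-kB consensus on either strand, 3.44% the ISRE, 7.81% the AP-1 motif, 13.6% TATAAA and 6.85% the ACANNNTGT palindrome. The matches are letters in a window and no binding was measured in these libraries.

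**Figure D1:**
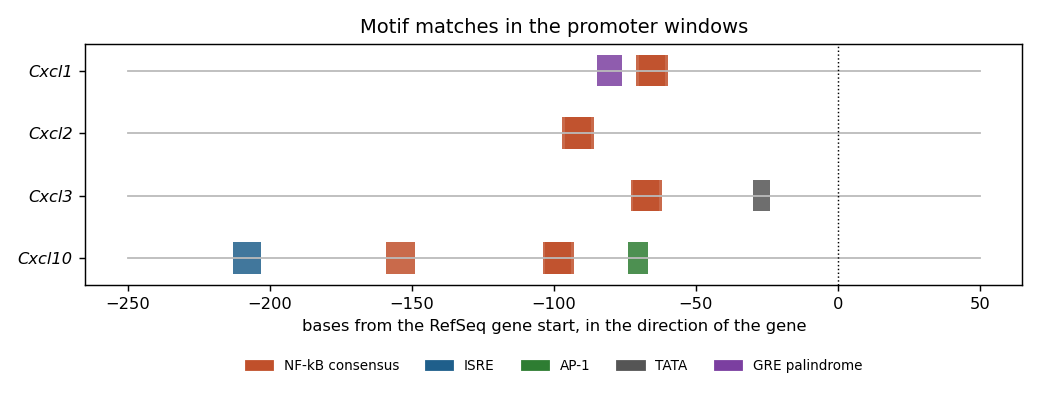
Matches of 5 motifs in the 4 promoter windows, drawn against distance in bases from the RefSeq gene start. An NF-kB match lies between -104 and -61 in all 4 genes, and the ISRE match is found in the Cxcl10 window alone.

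The libraries held 25000000 to 49700000 reads (median 34200000), and 3 reads corresponded to 0.0653 to 0.136 CPM. The library of untreated BMDM from WT mouse A was unlike the rest: its r across genes with the other 15 libraries was 0.830 to 0.909, and theirs with each other was 0.924 to 0.993. Nelfb, the targeted gene, stood at 5.67 ± 0.088 log2 CPM in LPS-treated WT BMDM and at 3.65 ± 0.49 in the KO (SD, n = 3), a difference of -2.02 (adjusted p = 0.0111). Of the 7 macrophage markers 6 were in the table (Adgre1 was not). Over the libraries, Csf1r was at 11.4 to 11.9 log2 CPM, Cd68 at 10.03 to 10.9, Itgam at 9.31 to 10.8, Fcgr1 at 7.37 to 8.76, Mertk at 6.22 to 8.04 and Lyz2, the gene whose promoter drives LysM-Cre, at 4.30 to 6.33. Of the 9 neutrophil markers only S100a8 was in the table, at 2.45 to 5.38. None of the 5 T and B cell markers was in the table. In bulk RNA, fewer cells that express a gene and less RNA per cell cannot be told apart.

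Before stimulation, Cxcl16 was the only 1 of the 5 chemokines at a high level in BMDM. Per kb of exon, which is the scale used to compare genes here, untreated WT BMDM held 7.35 log2 CPM per kb of Cxcl16, 1.84 of Cxcl2, -0.28 of Cxcl1, -0.65 of Cxcl3 and -1.55 of Cxcl10. After 1 h of LPS the order in the WT on the same scale was Cxcl2 (9.38), Cxcl1 (7.77), Cxcl16 (7.16), Cxcl10 (6.93) and Cxcl3 (2.500). Cxcl16 and Cxcl10, neighbours in this order, were 7.03 to 7.32 and 6.71 to 7.27 log2 CPM per kb over the 3 libraries and overlapped. Cxcl3 stayed below the lowest library of every other member. These levels rest on few reads where they are low, with 12 reads of Cxcl10 and 27 of Cxcl1 in the untreated WT library of mouse A.

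LPS raised the mRNA of 4 of the 5 chemokines in both genotypes within 1 h. Cxcl1 rose by 263-fold in the WT, Cxcl10 by 357-fold and Cxcl3 by 8.91-fold, and Cxcl16 did not pass the test. A gene was called at an adjusted p under 0.1 and over 1.5-fold higher, a rule that 6.01% of all genes passed in the WT. In the KO 3.08% did.

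Cxcl1 was at 0.33 (A) and 0.94 (B) log2 CPM in untreated WT BMDM and at 8.65 (A), 8.69 (B) and 8.68 (C) with LPS. In the KO it was at 0.29 (A) and 0.38 (B) untreated and at 8.25 (A), 8.74 (B) and 8.40 (C) with LPS. The groups lay far apart in both genotypes, and the change was 8.04 ± 0.19 (SE, adjusted p = 2.60e-11) on the log2 scale in the WT and 8.13 ± 0.19 (SE, adjusted p = 2.26e-11) in the KO.

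Cxcl2, the highest of the 5 genes per kb after LPS, rose from 2.57 (A) and 3.22 (B) log2 CPM to 10.16 (A), 10.60 (B) and 10.51 (C) in the WT. In the KO it rose from 2.68 (A) and 2.79 (B) to 10.60 (A), 11.004 (B) and 10.85 (C). All LPS libraries were above all untreated libraries, and the log2 change was 7.53 ± 0.21 (SE, adjusted p = 1.39e-10) in the WT and 8.08 ± 0.21 (SE, adjusted p = 5.62e-11) in the KO.

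Cxcl10 was the lowest member in the untreated WT, at -0.81 (A) and 0.05 (B) log2 CPM, and stood at 7.99 (A), 7.88 (B) and 8.44 (C) with LPS. The untreated KO libraries were higher, at 1.09 (A) and 0.38 (B), and the LPS-treated ones were at 8.37 (A), 8.79 (B) and 8.22 (C). The log2 change was 8.48 ± 0.30 (SE, adjusted p = 7.93e-10) in the WT and 7.73 ± 0.30 (SE, adjusted p = 1.81e-09) in the KO.

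Cxcl3 moved less and varied more between mice. It was at 0.43 (A) and 1.88 (B) log2 CPM in the untreated WT and at 3.91 (A), 5.26 (B) and 3.76 (C) with LPS. In the KO it was at 1.95 (A) and 2.94 (B) untreated and at 4.54 (A), 6.33 (B) and 4.93 (C) with LPS. The groups did not overlap in either genotype, and the log2 change was 3.15 ± 0.76 (SE, adjusted p = 0.0251) in the WT and 2.82 ± 0.76 (SE, adjusted p = 0.0644) in the KO. With a replicate block for the mouse, the SE was 0.23, and the changes were 3.42 ± 0.23 (SE, adjusted p = 1.87e-05) and 3.04 ± 0.23 (SE, adjusted p = 3.59e-05). Without the untreated WT library of mouse A the WT change was 2.43 (adjusted p = 0.284) in the fit without the block. In the KO the call was likewise lost in the fit without the block when the untreated library of mouse A or B or the LPS library of mouse B or C was left out (changes of 2.29 to 3.32, adjusted p = 0.105 to 0.570).

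Cxcl16 was at 9.52 (A) and 8.37 (B) log2 CPM in the untreated WT and at 8.72 (A), 8.62 (B) and 8.92 (C) with LPS. In the KO it was at 8.83 (A) and 8.40 (B) untreated and at 9.01 (A), 8.68 (B) and 9.28 (C) with LPS. The groups overlapped in both genotypes, and the log2 change was -0.19 ± 0.29 (SE, adjusted p = 0.672) in the WT (95% interval -0.82 to 0.44) and 0.37 ± 0.29 (SE, adjusted p = 1.00) in the KO (95% interval -0.26 to 1.00). The WT change rested on which untreated library was kept: it was 0.39 (adjusted p = 0.631) without that of mouse A, whose Cxcl16 was the highest of the 16, and -0.77 (adjusted p = 0.0240) without that of mouse B.

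**Figure D2:**
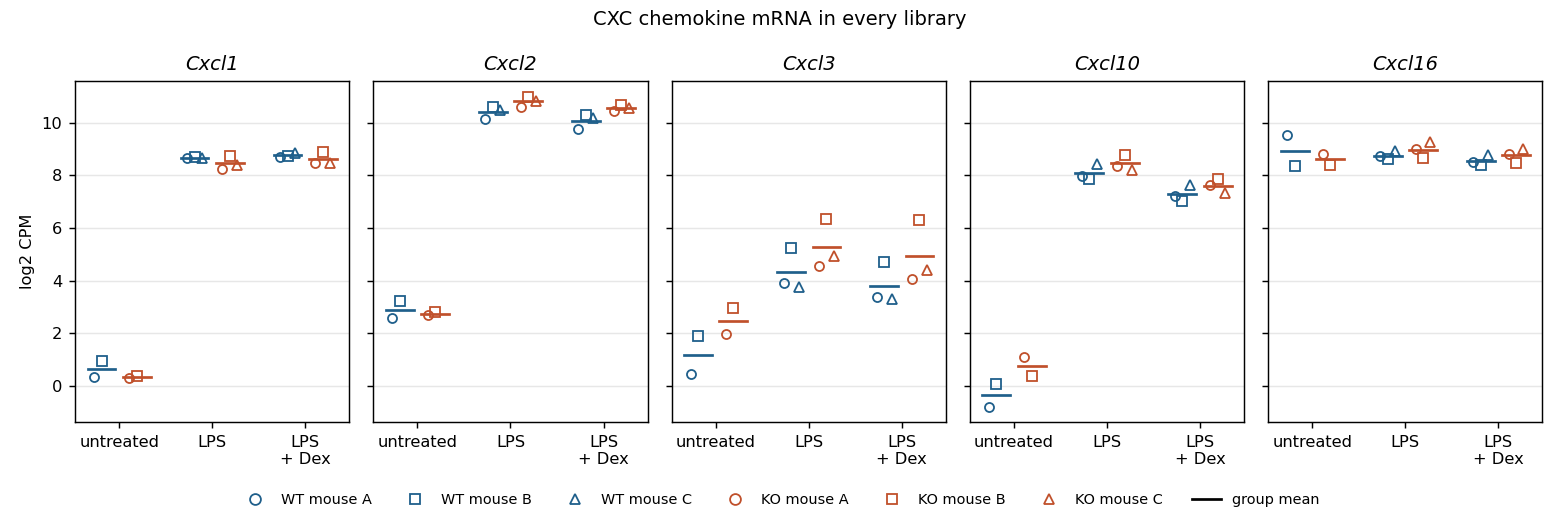
The log2 CPM of each chemokine (y axis) in each of the 16 libraries, by treatment (x axis), genotype (colour) and mouse (symbol), with bars at the group means. Cxcl1, Cxcl2 and Cxcl10 rise by 7.53 to 8.48 log2 units with LPS in the WT, Cxcl3 rises less and is highest in mouse B of every group, and Cxcl16 is between 8.37 and 9.52 in every library.

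Within the same mouse, the LPS change of Cxcl10 could be set against that of the others in the 4 mice that had untreated libraries. The difference between Cxcl10 and Cxcl1 was 0.47 in WT mouse A, 0.08 in WT mouse B, -0.69 in KO mouse A and 0.06 in KO mouse B, with no shared direction (exact sign-flip permutation test, two-sided, p = 1, also adjusted). For Cxcl2 the mean difference was 0.30 ± 0.76 log2 units (SD, n = 4 mice, exact p = 0.5, adjusted 0.667). Cxcl10 rose by 4.87 ± 0.38 log2 units more than Cxcl3 and by 8.10 ± 1.08 more than Cxcl16 in 4 of 4 mice (both exact p = 0.125, the smallest that 4 mice allow; adjusted over the 4 pairs 0.25).

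Dex given together with LPS lowered Cxcl10 the most of the 5 genes, to 53.0% to 60.7% of its level with LPS alone in each of the 6 mice. Cxcl2, Cxcl3 and Cxcl16 were lowered less, and Cxcl1 was not lowered in any mouse, at 105% to 116% of its level with LPS. The Dex comparison was made within mice, since the LPS and LPS + Dex libraries of each genotype came from the same 3 animals. A gene was called at an adjusted p under 0.1 and over 1.3-fold lower, which 2.17% of all genes passed in the WT, and 2.55% in KO BMDM. Cxcl10 and Cxcl3 were called in the WT and Cxcl10 alone in the KO. At an adjusted p under 0.1 with no fold, 4 of the 5 genes were lower in both genotypes, against 7.01% of all genes in WT and 8.97% in KO BMDM. By the same rule 0 members were higher in the WT and Cxcl1 was higher in the KO, against 5.53% and 8.72% of all genes.

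Cxcl10 with LPS + Dex was at 7.22 (A), 7.02 (B) and 7.62 (C) log2 CPM in the WT and at 7.65 (A), 7.88 (B) and 7.33 (C) in the KO. In both genotypes these libraries did not overlap those with LPS alone. The same-animal changes were -0.77 (A), -0.86 (B) and -0.82 (C) in the WT and -0.72 (A), -0.92 (B) and -0.90 (C) in the KO. The fit gave -0.82 ± 0.040 (SE, adjusted p = 3.35e-08) in the WT and -0.84 ± 0.040 (SE, adjusted p = 1.96e-08) in the KO, a fall of 1.76-fold and 1.80-fold. Cxcl10 in the presence of Dex remained 6.55 to 8.02 log2 units above its untreated level in the 4 mice that had one.

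Cxcl3 with LPS + Dex was at 3.35 (A), 4.71 (B) and 3.29 (C) log2 CPM in the WT and at 4.08 (A), 6.32 (B) and 4.38 (C) in the KO. The groups overlapped, and the same-animal changes were -0.55 (A), -0.54 (B) and -0.46 (C) in the WT and -0.47 (A), -0.02 (B) and -0.55 (C) in the KO. In 5 of the 6 mice Cxcl3 was thus between -0.55 and -0.46 of change, and in KO mouse B there was almost none. The fit gave -0.52 ± 0.082 (SE, adjusted p = 7.28e-04) in the WT and -0.34 ± 0.082 (SE, adjusted p = 0.0124) in the KO, where the fall of 1.27-fold was under the threshold. Without KO mouse B the KO change was -0.51 (adjusted p = 1.44e-04) and Cxcl3 was called there too.

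Cxcl2 with LPS + Dex was at 9.76 (A), 10.29 (B) and 10.18 (C) log2 CPM in the WT and at 10.45 (A), 10.67 (B) and 10.55 (C) in the KO. The groups overlapped, and the same-animal changes were -0.40 (A), -0.31 (B) and -0.33 (C) in the WT and -0.15 (A), -0.34 (B) and -0.29 (C) in the KO. The fit gave -0.35 ± 0.042 (SE, adjusted p = 8.14e-05) and -0.26 ± 0.042 (SE, adjusted p = 8.16e-04), falls of 1.27-fold and 1.20-fold that were under the threshold of 1.3.

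Cxcl1 with LPS + Dex was at 8.71 (A), 8.76 (B) and 8.85 (C) log2 CPM in the WT, above all 3 libraries with LPS alone, and at 8.46 (A), 8.91 (B) and 8.49 (C) in the KO, where the groups overlapped. The same-animal changes were 0.07 (A), 0.07 (B) and 0.16 (C) in the WT and 0.21 (A), 0.17 (B) and 0.09 (C) in the KO, all above 0. The fit gave 0.10 ± 0.035 (SE, adjusted p = 0.113) in the WT and 0.16 ± 0.035 (SE, adjusted p = 0.00890) in the KO, and centring each library on its median gene kept the direction (0.11 and 0.16).

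Cxcl16 with LPS + Dex was at 8.52 (A), 8.40 (B) and 8.76 (C) log2 CPM in the WT and at 8.82 (A), 8.47 (B) and 9.01 (C) in the KO. The same-animal changes were small and alike, -0.20 (A), -0.22 (B) and -0.16 (C) in the WT and -0.18 (A), -0.21 (B) and -0.26 (C) in the KO. The fit gave -0.19 ± 0.032 (SE, adjusted p = 0.00112) and -0.22 ± 0.032 (SE, adjusted p = 3.70e-04), which passed the adjusted p but not the fold. Cxcl16 was thus lowered by Dex although LPS had not been shown to raise it.

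Without the replicate block 0 of the 5 genes were called with Dex in either genotype, with an adjusted p for Cxcl10 of 0.163 in the WT and 0.122 in the KO and 54 and 70 genes called in all, against 209 and 245 with it. Without the block, Cxcl10 alone passed an unadjusted p under 0.05 with the same fold in each genotype. At that threshold the fits with the block called as many members as at the adjusted p, 2 for the WT and 1 for the KO.

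**Figure D3:**
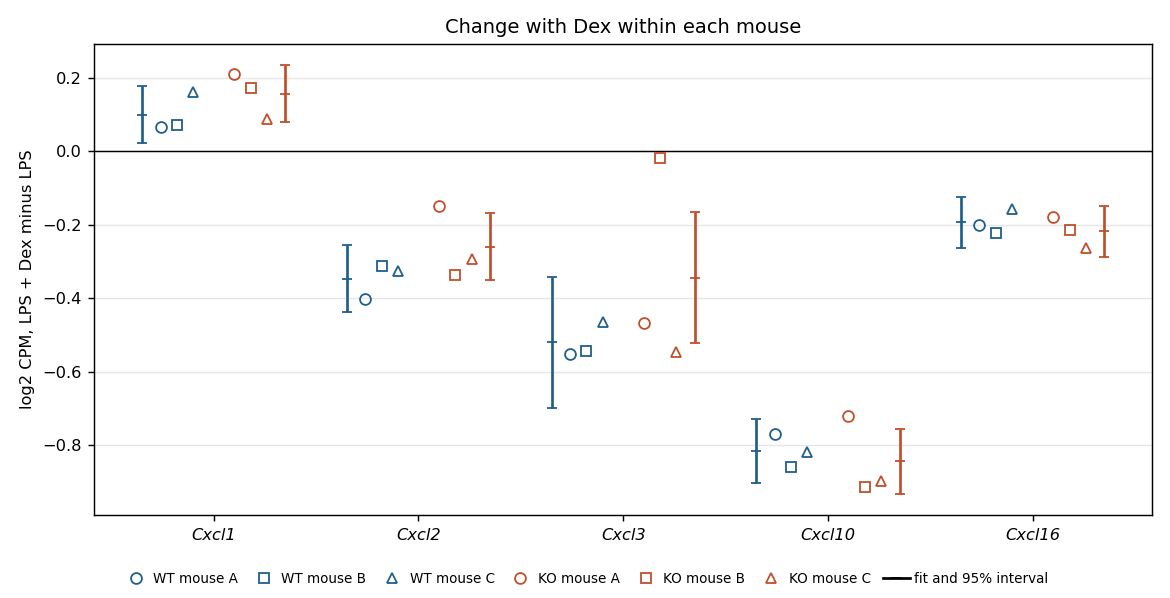
The change in log2 CPM from LPS to LPS + Dex (y axis) within each of the 6 mice for each chemokine, with the fitted change and its 95% interval per genotype. The 6 mice of Cxcl10 lie between -0.92 and -0.72, those of Cxcl1 between 0.07 and 0.21, and KO mouse B of Cxcl3 lies at -0.02.

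Compared within the same mice, Dex lowered Cxcl10 more than each of the 3 neutrophil-attracting genes and Cxcl16 in 6 of 6 mice. The difference in Dex change was -0.96 ± 0.0827 log2 units against Cxcl1 (SD, n = 6 mice), with a range of -1.09 to -0.84. Against Cxcl2 it was -0.53 ± 0.0867, and against Cxcl16 -0.62 ± 0.0595. Against Cxcl3 it was -0.40 ± 0.25 and spread from -0.90 in KO mouse B to -0.22. In each of the 4 pairs the exact sign-flip permutation test gave p = 0.0312, two-sided, which is the smallest that 6 mice allow and is also the value adjusted over the 4 pairs. The neutrophil-attracting genes were not alike under Dex, since Cxcl1 was above 0 and Cxcl2 and Cxcl3 below 0 in all 6 mice.

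The deletion of NELF-B was compared in each treatment, at an adjusted p under 0.1 and over 1.5-fold in either direction, and 0 of the 5 chemokines were called in the fit without a block. Of all genes, 0.0104% passed untreated, 0.385% with LPS and 0.302% with LPS + Dex. At an unadjusted p under 0.05 and the same fold, 732 of all 9614 genes passed in untreated BMDM. With LPS 314 passed, and 337 with LPS + Dex. Cxcl10 in untreated BMDM was the only member past this threshold. With only the untreated libraries in the limma fit, Cxcl10 did not pass it (1.11 ± 0.60, SE, unadjusted p = 0.124). The KO and WT libraries overlapped for Cxcl1 and Cxcl16 in all 3 treatments. Of the macrophage markers Lyz2 was called, higher in the KO by 1.16 (adjusted p = 0.0963) with LPS and by 1.298 (adjusted p = 0.0589) with LPS + Dex, and its part in the differences that follow was not tested.

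The largest untreated differences were those of Cxcl3 and Cxcl10. For Cxcl10 the KO minus WT difference was 1.11 ± 0.33 (SE, adjusted p = 0.324) on the log2 scale. The KO libraries held 45 and 83 reads and the WT libraries 12 and 31. The groups (n = 2) did not overlap for Cxcl10 or for Cxcl3. The share of all genes that do not overlap between groups of this size was not counted. With LPS the Cxcl10 difference was 0.36 ± 0.27 (SE, adjusted p = 1.00) and with LPS + Dex 0.33 ± 0.27 (SE, adjusted p = 1.000), and the groups overlapped. Without the untreated WT library of mouse B, which leaves mouse A alone in its group and assumes that it varies like the others, the untreated Cxcl10 difference was 1.54 (adjusted p = 0.00386), Cxcl16 was called as well (-0.91, adjusted p = 0.0162), and 4250 genes were called in all. That remaining library is the one that stood apart. Without it, the untreated Cxcl10 difference was 0.68 (adjusted p = 0.980).

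The KO minus WT difference of Cxcl3 was 1.296 ± 0.84 (SE, adjusted p = 0.387) untreated, 0.96 ± 0.68 (SE, adjusted p = 1.00) with LPS and 1.14 ± 0.68 (SE, adjusted p = 0.868) with LPS + Dex. The WT and KO libraries overlapped under LPS and LPS + Dex, as mouse B of the WT lay above mice A and C of the KO. When libraries were matched by mouse letter, the KO was higher in 8 of 8 pairs of libraries, by 0.64 to 1.60. These are the same 3 pairs of mice, met again in each treatment. In the labels only the mice of letter B share a printed code across the genotypes, which in the WT is printed on the untreated library alone. A and C join mice that share none. The libraries of the C mice all bear a code that begins with S, but a different one each. With the letter as a block the difference was 1.296 ± 0.23 (SE, adjusted p = 0.109) untreated, 0.96 ± 0.19 (SE, adjusted p = 0.0419) with LPS and 1.14 ± 0.19 (SE, adjusted p = 0.0184) with LPS + Dex, so that Cxcl3 was called in the last 2. That fit called 239 and 271 genes in all, against 37 and 29 without the block. With a block for mouse B against the others alone, added after seeing the data, Cxcl3 was called in all 3 treatments (adjusted p = 0.0825, 0.0320 and 0.0126). Both fits, like the one without a block, take the libraries of a mouse as separate samples. Without a block the difference depended on mouse B and on the untreated library of WT mouse A: with 1 library left out at a time it went from 0.57 (without untreated WT mouse A) to 2.02 (without untreated WT mouse B) in untreated BMDM. It went from 0.43 (without KO mouse B) to 1.44 (without WT mouse B) with LPS, and likewise from 0.44 to 1.601 with LPS + Dex, and was not called in any of these.

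For Cxcl2 the difference was 0.39 ± 0.19 (SE, adjusted p = 0.771) with LPS and 0.48 ± 0.19 (SE, adjusted p = 0.454) with LPS + Dex. Under LPS + Dex the groups did not overlap, and the share of all genes for which this holds was not counted. With the letter as a block the adjusted p was 0.0851 and 0.0404, and both differences were under 1.5-fold. Cxcl1 did not share this, with -0.21 ± 0.17 (SE, adjusted p = 1.00) and -0.15 ± 0.17 (SE, adjusted p = 1.000), and Cxcl16 was at 0.23 ± 0.26 (SE, adjusted p = 1.00) and 0.21 ± 0.26 (SE, adjusted p = 1.000).

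**Figure D4:**
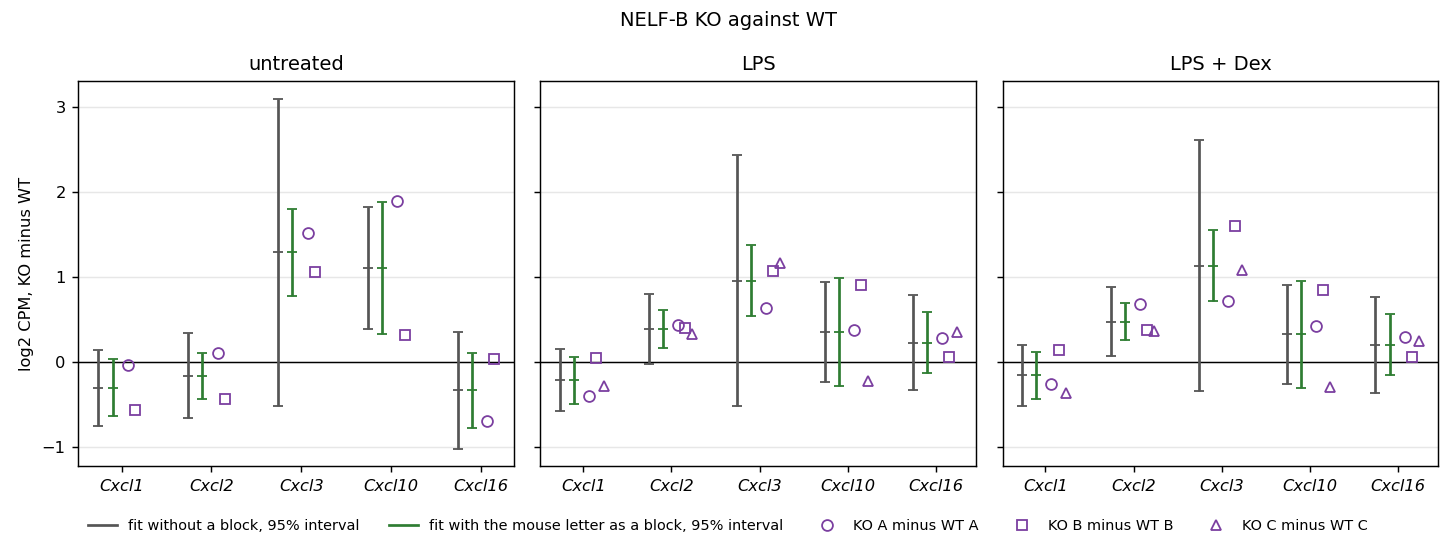
The difference in log2 CPM between NELF-B KO and WT (y axis) for each chemokine in the 3 treatments, with the 95% interval of both fits and the difference between mice of the same letter. All 8 letter pairs of Cxcl3 lie above 0, between 0.64 and 1.60, and its interval is wide without the block.

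With no library left out, the response to Dex or LPS did not differ between the genotypes at an adjusted p under 0.1 for any member. For the difference in Dex response (KO minus WT), 0.0208% of all genes passed an adjusted p under 0.1, and the members stood at 0.06 for Cxcl1, 0.09 for Cxcl2, 0.18 for Cxcl3, -0.03 for Cxcl10 and -0.02 for Cxcl16 (adjusted p of 0.798 to 0.943). The 95% interval for Cxcl10 was -0.15 to 0.10 log2 units and that for Cxcl3 -0.08 to 0.43. For the difference in LPS response 0% of all genes passed (221 at an unadjusted p under 0.05). The intervals there were wide, at -1.68 to 0.17 for Cxcl10 and -2.67 to 2.00 for Cxcl3. At an unadjusted p under 0.05, 0 members passed in either comparison in these fits. With a replicate block for the mouse, Cxcl2 alone of the members passed it in the difference in LPS response. There it stood at 0.59 ± 0.12 (SE, unadjusted p = 0.000926, adjusted p = 0.414 in limma). In that fit 0 of all genes passed an adjusted p under 0.1. The ratio of Cxcl10 to Cxcl1 was 0.57 log2 units higher in the KO with LPS and 0.48 with LPS + Dex (both exact permutation p = 0.1, the smallest that 3 against 3 mice allow). For the other 3 genes the exact p was between 0.4 and 0.8.

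Cxcl3 differed between mice more than any other member. It was highest in mouse B in 6 of 6 groups of genotype and treatment, by 0.99 to 2.24 log2 units over mouse A and by 1.41 to 1.93 over mouse C. Cxcl2 was also highest in mouse B in 6 of 6 groups, but by at most 0.65 over mouse A, and Cxcl16 was highest there in 0 of 6. The table held 3 of the 10 other CXC chemokines searched for, of which Ppbp (chr5:90768518-90770063) and Pf4 (chr5:90772435-90773383), both known as platelet chemokines, lie just before Cxcl3 in the cluster. Ppbp was between 1.92 and 3.67 log2 CPM in the 6 libraries of mouse B, which is a different animal in each genotype. It was between -1.93 and -0.24 in the 10 libraries of mice A and C. Pf4 was between 7.92 and 9.08 in mouse B and between 6.50 and 7.88 in the others, so that neither gene overlapped. How many of all genes separate mouse B from the others was not counted, so the pattern cannot be called particular to these genes. Cxcl14 was between 1.76 and 2.64 in mouse B and between 1.68 and 2.72 in the others, which overlapped. Of the 5 markers of other cells in the table, Ccr7 and Dcn separated mouse B from the others and the other 3 overlapped. Ccr7, a chemokine receptor of mature dendritic cells and the only 1 of 4 dendritic cell markers in the table (Flt3, Zbtb46 and Xcr1 were not), was between 2.18 and 3.33 log2 CPM in mouse B and between -1.12 and 0.52 in the others, which did not overlap. Of the 3 stromal genes in the table (of 4 listed), Dcn was between 2.33 and 3.50 in mouse B and between 1.17 and 2.08 in the others. Col1a1 was between 4.73 and 5.37 in mouse B and between 3.89 and 5.67 in the others, Col1a2 was between 5.21 and 5.86 and between 4.04 and 5.91, and the list summed to 68.8 to 110 CPM in mouse B and 33.5 to 115 in the others. S100a8, the 1 neutrophil marker in the table, was between 2.45 and 4.37 in mouse B and between 3.73 and 5.38 in the others. The animals of letter B and whatever their shared code stands for cannot be told apart, and the part of other cell types in this pattern was not tested.

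**Figure D5:**
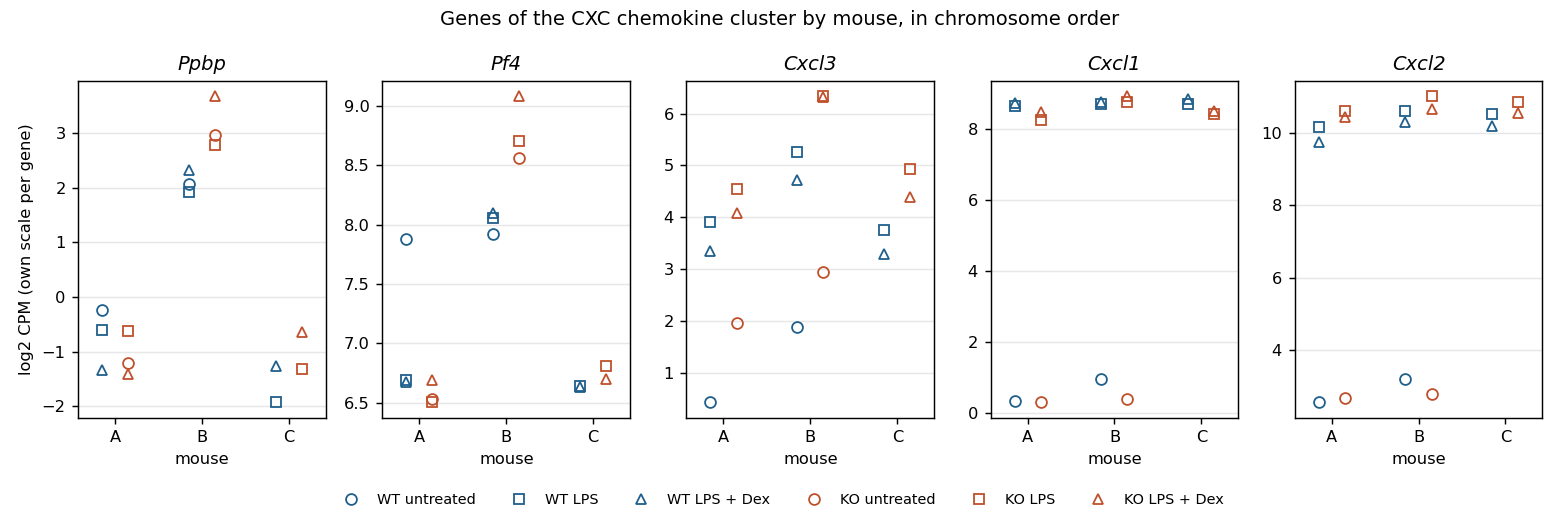
The log2 CPM of 5 genes of the chemokine cluster (y axis, own scale for each gene) by mouse letter (x axis), genotype (colour) and treatment (symbol). Ppbp and Pf4 do not overlap between mouse B and the others, Cxcl3 is highest in mouse B within each group, and Cxcl1 and Cxcl2 are separated by LPS.

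The other 3 CXC chemokines in the table did not follow the members: 0 of 3 passed the test with LPS or with Dex in either genotype. Of the 8 chemokine receptors listed, Cxcr3, the receptor of Cxcl10, and Cxcr4 were in the table, at 2.42 to 3.21 and 6.62 to 7.44 log2 CPM, and 0 of 2 were called. The adjusted p for Cxcr4 with Dex in the WT was under 0.1, at a change of 0.17 (adjusted p = 0.00537). Adam10 and Adam17, the proteases that release Cxcl16, were not called either. With LPS their changes were 0.32 (adjusted p = 0.237) and 0.40 (adjusted p = 0.118) in the WT.

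Of 11 regulators of the NF-kB pathway, 8 were called with LPS in WT BMDM and 10 in KO BMDM. At an adjusted p under 0.1 with no fold, 11 of 11 were higher in WT BMDM, and 10 of 11 in KO BMDM. By that rule 714 of all 9614 genes were higher in WT BMDM and 317 in KO BMDM. Tnfaip3, which ends NF-kB signalling, changed by 5.25 (adjusted p = 1.03e-09) in the WT, and the inhibitors Nfkbia and Nfkbie by 3.34 (adjusted p = 1.13e-07) and 2.51 (adjusted p = 6.76e-07). With Dex 2 of 11 were called in each genotype, Nfkbie and Bcl3. For WT BMDM their changes were -0.42 (adjusted p = 2.61e-05) and -0.56 (adjusted p = 5.27e-05). For KO BMDM they were -0.44 (adjusted p = 1.41e-05) and -0.76 (adjusted p = 3.28e-06). At an adjusted p under 0.1 with no fold, 9 of 11 were lower with Dex in each genotype. All genes passed that rule at 7.01% for WT BMDM and 8.97% for KO BMDM. Higher by the same rule were 0 of 11 for WT BMDM and 1 of 11 for KO BMDM. The median change of the 11 genes with Dex was -0.20 in both genotypes, beside -0.01 in the WT and 0.00 in the KO over all genes.

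Of 19 genes of the interferon side, to which Cxcl10 belongs, 8 were called with LPS in each genotype. With Dex 4 of 19 were called in the WT and 9 of 19 in the KO. At an adjusted p under 0.1 with no fold, 9 were lower with Dex in the WT and 13 in the KO, and 0 were higher. Ifnb1, which encodes interferon beta, was at or near the floor of the table in the untreated libraries and rose at least 224-fold in LPS-treated WT BMDM and at least 384-fold in the KO, as the lowest LPS library against 3 reads per untreated library. Dex changed it by -1.20 (adjusted p = 1.17e-07) in the WT and -1.67 (adjusted p = 6.07e-09) in the KO. Irf1, a transcription factor of this pathway, changed with Dex by -0.81 (adjusted p = 2.27e-06) and -0.93 (adjusted p = 5.47e-07), and Isg15 by -0.47 (adjusted p = 4.17e-04) and -0.68 (adjusted p = 1.57e-05). The median Dex change over the 19 genes, -0.25 in WT and -0.35 in KO BMDM, was smaller than that of Cxcl10. The difference in Dex response between genotypes was called for 0 of the 19.

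Of 7 genes listed for the decay of chemokine mRNAs, 3 were called with LPS in each genotype. Zfp36 and Zc3h12a were called in both, Cnot7 in the WT alone and Zfp36l1 in the KO alone. Zfp36 (tristetraprolin), which binds AU-rich elements, changed by 4.01 (adjusted p = 2.41e-07) with LPS and by -0.63 (adjusted p = 2.13e-06) with Dex in the WT, and was the only 1 of the 7 that was lower with Dex at an adjusted p under 0.1. Zc3h12a (Regnase-1) changed by 0.92 (adjusted p = 7.53e-04) with LPS. With Dex 3 of the 7 were higher at an adjusted p under 0.1 in each genotype: Zc3h12a by 0.37 (adjusted p = 8.33e-05), Zfp36l1 by 0.41 (adjusted p = 0.00342) and Zfp36l2 by 0.29 (adjusted p = 6.61e-05) in the WT, and by 0.40, 0.66 and 0.27 in the KO. Among 6 genes known to be induced by glucocorticoids, 5 were higher with Dex in both genotypes at an adjusted p under 0.1, such as Tsc22d3 at 3.80 (adjusted p = 1.13e-12) and Fkbp5 at 2.86 (adjusted p = 1.93e-09) in the WT. Dusp1, a phosphatase that limits MAP kinase signalling, rose with LPS by 4.95 (adjusted p = 3.08e-08) and again with Dex by 0.93 (adjusted p = 4.08e-08) in the WT.

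The genes whose levels were most like each member over the 16 libraries are given as a description, since the libraries share treatments and mice. For Cxcl1 they were Tnfaip3 (Pearson r = 0.996) and Gem (0.993), and for Cxcl2 Tnfaip3 (0.997) and Egr1 (0.996). For Cxcl10 they were Nlrp3 (0.998) and Dnajb4 (0.993). A total of 149 genes outside the members had an r above 0.9 with Cxcl1, 164 with Cxcl2 and 178 with Cxcl10, against 28 with Cxcl3 and 22 with Cxcl16. Cxcl3 was most like Fzd1 (0.959) and Smndc1 (0.958), and Cxcl16 like Aldh2 (0.947) and Bin3 (0.944). Among the members, Cxcl1, Cxcl2 and Cxcl10 were alike at r of 0.983 to 0.995, Cxcl3 stood at 0.787 to 0.823 to these 3, and Cxcl16 at -0.27 to -0.02 to the others.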

How the data were processed

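RNA-seq values of 9614 genes in 16 libraries were analysed for 5 CXC chemokines. The authors prepared libraries from polyA RNA and mapped the read pairs to mm10 in the CLC Bio workbench. The authors then used edgeR with TMM scaling to turn counts of uniquely mapped exonic reads into the log2 CPM that they deposited for each library. Versions of these tools and the filter that left 9614 genes are not given in the sources used here. Columns of p-values and FDR, deposited by the authors for pairwise comparisons of their own, were not used. A count test had been planned if the file held counts, and limma was used because it holds log2 CPM. Depth was recovered from the equal CPM steps of low values: 100% of values under 3 CPM came out whole within 0.15 reads. Floors cover counting error only.

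Comparisons were fitted with lmFit and eBayes (trend) in limma 3.58.1 under R 4.3.3, with Benjamini-Hochberg adjustment over all genes, no pseudocount and no further filter. LPS and KO against WT were fitted over all 16 libraries, and Dex over the 12 LPS and LPS + Dex libraries with the mouse as a replicate block. Samples were grouped and paired by the genotype, treatment and mouse number in the labels. In LPS and LPS + Dex libraries of the same mouse, deviations from the group means correlated at r = 0.781 to 0.939 across genes, and in untreated and LPS libraries at 0.185 to 0.822. Within a group each library is a separate animal. The fits of LPS and of KO against WT rest on the spread within groups. Unless a replicate block is named, they take the libraries of a mouse in different groups as separate samples. The p-values for Dex measure the spread of the changes within mice. Exact tests and other values used Python 3.11.15, numpy 2.4.6 and pandas 2.3.3, and figures matplotlib 3.10.9. The fits were tested on simulated data.

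Positions and exon lengths are from GENCODE vM21 (GRCm38), and promoter windows from RefSeq (GRCm38.p6), matched by symbol for 4 of the 5 genes. Named genes are the members, Nelfb, up to 3 called genes per list and LPS or Dex comparison with the smallest adjusted p, and the 2 genes most like each member. Ccr7, the macrophage and stromal markers, S100a8, Zfp36l1, Zfp36l2, Ppbp, Pf4, Cxcl14, Cxcr3, Cxcr4, Adam10, Adam17, Tsc22d3, Fkbp5 and the Dex changes of Dusp1 and Zc3h12a were named after their values were seen. The members and lists were chosen with earlier results of these data known. The alternatives are given in the closing section, and an adjusted p with no fold for Dex and a block for mouse B were added after seeing the data.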

Additional observations from a re-analysis of the deposited data

Results flagged for a closer look

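The Dex change of Cxcl3 over the 6 mice held a value that stood apart: -0.019 log2 units in KO mouse B, with the other 5 mice between -0.55 and -0.46. The gap to the nearest mouse was 0.835 of the whole range, above Dixon's 95% critical value of 0.625 for 6 values. KO mouse B also held the highest Cxcl3 level of the 3 KO mice in each treatment, 6.33 log2 CPM with LPS and 6.32 with LPS + Dex, from 2344 and 2873 reads. Through this value the difference in Dex change between Cxcl10 and Cxcl3 was flagged as well, at -0.897 in the same mouse, with a gap of 0.801 of the range. A total of 9 such sets of 6 mice were examined, and chance flags about 1 in 20. The cause was not tested.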

How the results depend on the processing

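Dex calls rested on the pairing within mice: without the replicate block 0 of the 5 genes were called in the WT and 0 in the KO, with 54 and 70 of all genes called against 209 and 245. By an adjusted p alone 4 members were lower in the WT and 4 in the KO, and 0 were higher in the WT. Leaving out each mouse left 2 calls in the WT and 1 to 2 in the KO, where the difference in Dex response of Cxcl10 went from -0.0903 to 0.0072. A replicate block for LPS left 4 members called in each genotype and raised all calls from 578 to 1132 in the WT. The block changed no LPS call of a member. With the mouse letter as a block 1 member, Cxcl3, was called with LPS and 1, Cxcl3, with LPS + Dex, and all calls went from 1, 37 and 29 to 11, 239 and 271. With a block for mouse B against the others, added after seeing the data, 1 member (Cxcl3) was called in each of the 3 treatments, among 10, 218 and 252 genes. With only the libraries of the treatment compared, 0, 2 and 12 genes were called in all. At an unadjusted p under 0.05 with the fold, 1 member (Cxcl10) was called in untreated BMDM, among 732 genes.

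Leaving out each library gave 3 to 4 members called with LPS in either genotype, 0 to 2 for the difference in LPS response and 0 to 2 for KO against WT untreated. The 2 calls came without the untreated WT library of mouse B, where 4666 and 4250 genes were called in all. In the same range the LPS change of Cxcl16 in the WT was -0.768 to 0.388, with an adjusted p of 0.0240 at the lowest (without the untreated WT library of mouse B), and the untreated KO against WT difference was 0.57 to 2.02 for Cxcl3, 0.68 to 1.54 for Cxcl10, -0.6055 to 0.0075 for Cxcl1, -0.484 to 0.168 for Cxcl2 and -0.906 to 0.25 for Cxcl16. With LPS and with LPS + Dex the Cxcl3 difference was 0.43 to 1.44 and 0.44 to 1.601. The difference in LPS response was -0.2188 to 0.3942 for Cxcl1 (-0.0289 on log2(CPM + 1)), -1.0585 to 0.3935 for Cxcl3 and -0.019 to 1.137 for Cxcl16. Without the mice that had no untreated library Cxcl3 lost its LPS call in both genotypes (adjusted p = 0.125 and 0.246 in limma). The cause of these shifts was not tested.

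The Dex change of Cxcl10 minus that of another member had the same direction in every alternative. In WT mice alone it was -0.917 against Cxcl1, -0.4693 against Cxcl2, -0.2967 against Cxcl3 and -0.623 against Cxcl16. In KO mice alone it was -1.0023, -0.585, -0.5003 and -0.6267. The smallest exact p that 3 mice allow is 0.25. Without each mouse it was -0.9842 to -0.934, -0.559 to -0.5118, -0.4344 to -0.2988 and -0.6416 to -0.6092, and 5 mice allow no exact p under 0.0625.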
